A study of Mus musculus with 28 samples.

Results

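Consensus regions of the histone variant H3.3 that lay at a gene end and touched a consensus region of acetylated histone H3 (H3K27ac) numbered 1667 in mouse embryonic stem cells. They were 31.0% of the 5377 H3.3 regions on chromosomes 1 to 19 (95% exact interval 29.8 to 32.3%) and 47.8% of the 3488 that lay at a gene end (46.1 to 49.5%). Regions counted as lying at a gene end when any part fell within 1 kb of the first or last annotated base of a RefSeq gene, whatever its biotype, and as touching when they shared at least 1 bp. The other 1821 gene-end H3.3 regions touched no H3K27ac region and are called unacetylated below, a short name for that alone. Both region lists chose the members, so their place at gene ends and their contact with H3K27ac are descriptions and not findings. Members are parts of 1 consensus list and not replicates of any condition.

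The lists came from CUT&RUN, in which nuclei are incubated with an antibody, a nuclease fused to an antibody-binding protein cuts around the bound sites, and the DNA set free is sequenced. The cells were E14, a male mouse embryonic stem cell line, and the series title names an alanine substitution of H3.3, K122A. The 28 libraries covered 4 targets (H3K27ac, H3K122ac, H3.3 and a control with no primary antibody, 7 libraries each) in 5 genotypes, and no treatment was given. The mutant genotypes were H3f3a_AA_H3f3b_WTA (clones 1 and 2, with 1 library each per target), H3f3a_AA_H3f3b_WTWT, H3f3a_WTWT_H3f3b_AA and H3f3a_WTA_H3f3b_AA (1 library per target each), and the last group was Wildtype (2 libraries per target). The labels leave the allele letters unexplained, and each mutant library is from 1 clone or 1 replicate. The labels describe growth on gelatin in serum medium with LIF, a cytokine that sustains the undifferentiated state, and the same medium with 2 added kinase inhibitors, and do not say which was used for which library.

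The deposited lists give positions only, with no height, score or value per library. Which of the genotypes entered each consensus is not given in the sources used here, so mutant and Wildtype cells were not compared, the depth is unknown and no result below has a replicate error or a test. Intervals are exact 95% intervals (Clopper-Pearson for shares, order statistics for medians) and cover counting error over regions, genes or start sites only. H3.3 libraries used a protein A/G fusion and a low-salt stop, while H3K27ac libraries used a protein A fusion and a stop with more salt, so widths compare H3.3 with H3.3 or H3K27ac with H3K27ac. Of 10 embryonic stem cell markers all 10 had H3K27ac at a gene end and 3 had a member (Pou5f1, Tdgf1 and Utf1). No member or H3K27ac region was found at any of 5 primitive endoderm markers or 4 trophoblast markers, among them Gata6, Sox17, Cdx2 and Eomes. Of 5 fibroblast markers Thy1 alone had a member, and of 5 neural markers Tubb3 alone had H3K27ac, without a member.

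H3.3 differs from the replication-coupled H3 proteins by a few residues and is built into chromatin outside DNA replication. The HIRA complex deposits it at active promoters, gene bodies and regulatory elements, and DAXX with ATRX deposits it at repeats and telomeres. Nucleosomes on both sides of active start sites turn over rapidly and are known to be rich in H3.3, and acetylation of H3 lysine 27 by EP300 and CREBBP marks active promoters and enhancers. At Polycomb-bound promoters of embryonic stem cells H3.3 is also known to occur where lysine 27 is methylated and not acetylated.

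Sequences upstream of 9 start sites that lay inside members are shown. All but Pou5f1 hold 1 or more of 4 short motifs that were more frequent in the members' promoters than in the unacetylated ones. Where a gene had several such starts, the one with the most motif bases was taken. The sequence of Hira, which also held none of the 4, is not printed. These sequences were picked for their motifs and do not show how common the motifs are. They are the 150 bases before the start, 5′ to 3′ along the gene, from RefSeq promoter sequences of GRCm38.p6, which carries mm10 coordinates. Capitals mark the ETS motif CCGGAAG, the YY1 motif AANATGGC, the NRF1 motif (GCGCA, any base, GCGC) or the ZFP143 motif (ACTACAA, any base, TCC), on either strand. Daxx encodes an H3.3 chaperone, Atp5j a subunit of ATP synthase, Mrpl43 a mitochondrial ribosomal protein, Psmd11 a proteasome subunit, Srcap a remodeller that loads H2A.Z, Taf8 a subunit of TFIID, Jarid2 a Polycomb repressive complex 2 subunit, Ndufa11 a subunit of respiratory complex I and Pou5f1 the pluripotency factor OCT4.
Daxx, chr17:33909348-33909497, plus strand: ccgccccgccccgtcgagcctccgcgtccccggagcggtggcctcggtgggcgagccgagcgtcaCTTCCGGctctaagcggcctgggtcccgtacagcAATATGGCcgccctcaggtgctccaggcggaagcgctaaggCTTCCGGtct
Atp5j, chr16:84834977-84835126, minus strand: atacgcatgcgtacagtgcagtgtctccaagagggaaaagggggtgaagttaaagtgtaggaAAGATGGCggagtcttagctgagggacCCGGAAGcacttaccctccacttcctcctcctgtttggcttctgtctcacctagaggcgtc
Mrpl43, chr19:45006443-45006592, minus strand: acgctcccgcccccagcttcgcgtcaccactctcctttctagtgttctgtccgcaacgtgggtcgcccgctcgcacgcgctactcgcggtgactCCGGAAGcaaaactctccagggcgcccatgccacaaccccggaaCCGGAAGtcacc
Psmd11, chr11:80428465-80428614, plus strand: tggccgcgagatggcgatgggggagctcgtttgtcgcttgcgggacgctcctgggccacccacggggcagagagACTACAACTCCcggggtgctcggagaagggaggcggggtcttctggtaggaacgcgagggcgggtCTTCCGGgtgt
Srcap, chr7:127511833-127511982, plus strand: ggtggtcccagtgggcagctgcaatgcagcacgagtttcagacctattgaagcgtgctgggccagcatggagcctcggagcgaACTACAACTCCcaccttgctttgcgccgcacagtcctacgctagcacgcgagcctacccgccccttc
Taf8, chr17:47502292-47502441, minus strand: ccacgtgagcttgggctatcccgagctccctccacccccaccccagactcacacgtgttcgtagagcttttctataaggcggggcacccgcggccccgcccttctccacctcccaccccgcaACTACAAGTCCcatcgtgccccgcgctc
Jarid2, chr13:44730624-44730773, plus strand: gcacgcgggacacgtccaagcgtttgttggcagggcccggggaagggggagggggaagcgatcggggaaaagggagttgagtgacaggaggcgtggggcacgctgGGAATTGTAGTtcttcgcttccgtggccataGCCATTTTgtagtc
Ndufa11, chr17:56717612-56717761, plus strand: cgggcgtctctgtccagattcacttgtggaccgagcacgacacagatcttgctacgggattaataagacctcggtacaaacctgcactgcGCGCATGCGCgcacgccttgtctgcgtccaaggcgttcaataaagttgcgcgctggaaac
Pou5f1, chr17:35505882-35506031, plus strand: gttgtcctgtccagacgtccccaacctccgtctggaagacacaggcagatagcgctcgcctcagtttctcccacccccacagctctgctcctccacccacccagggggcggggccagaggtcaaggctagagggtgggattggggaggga

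Daxx held an ETS motif 85 and again 10 bases before its start, read on the opposite strand, with a YY1 motif 51 bases before it. Atp5j held ETS 61 and YY1 88 bases upstream, and Mrpl43 held ETS 56 and 12 bases upstream. The ZFP143 motif lay 76 bases before the start of Psmd11, 67 before that of Srcap, 28 before that of Taf8 and, on the opposite strand, 45 before that of Jarid2, where a YY1 motif followed 14 bases before the start. Ndufa11 held the palindromic NRF1 motif 60 bases upstream. Pou5f1 held none of the 4 motifs and carried instead GGGCGG, the SP/KLF motif, 45 bases upstream and CCAAT, the NFY motif, on the opposite strand 12 bases upstream. The whole members and their acetylation at these genes are given with their gene groups below. A match is a run of letters and was not tested as a binding site.

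Nearly every member that could be classed lay at the start of a gene. Gene strand was listed for 1821 of the 2285 genes at members and for none on chromosome 18, so that 1395 members could be classed and 272 could not. Of those classed, 1342 (96.2%, 95.1 to 97.1%) lay within 1 kb of a start and 53 (3.80%, 2.86 to 4.94%) at the other end only. Of 1385 classed unacetylated H3.3 regions 1272 (91.8%, 90.3 to 93.2%) lay at a start. Gene-end H3K27ac regions without H3.3 did so in 5380 of 8174 cases (65.8%, 64.8 to 66.8%). The intervals of these 3 shares did not overlap, and the differences were not tested. A region counted as at a start when any gene with a listed strand started there. It counted as at the other end only when every gene end in its window had a strand. Missing strands can therefore raise the start shares, and 16.3% of members and 23.9% of unacetylated regions were unclassed. The 53 members at other ends had a median H3.3 width of 416 bp, against 467 bp for members at starts that do not face another start. The H3K27ac regions they touched were wide, with a median of 3189 bp (1563 to 4077 bp), against 1592 bp at starts (1516 to 1679 bp). Adamtsl4, which encodes a secreted matrix protein, is one of them, with a member of 266 bp inside an H3K27ac region of 18982 bp.

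Divergent promoters, where the starts of 2 genes face apart, made up 211 of the 1395 classed members (15.1%, 13.3 to 17.1%). The share was 154 of 1385 (11.1%, 9.51 to 12.9%) among unacetylated H3.3 regions and 609 of 8174 (7.45%, 6.89 to 8.04%) among H3K27ac regions without H3.3. Both genes were protein-coding at 147 of the 211 members (69.7%), and a long noncoding RNA faced a protein-coding gene at 64 (30.3%). The facing starts were a median of 122 bp apart, with an interquartile range of 59.5 to 280 bp. Of these members 76 (36.0%, 29.5 to 42.9%) held both starts, 59 (28.0%) held 1, 6 lay wholly between the starts and 70 (33.2%) held neither and lay outside them. Dido1 and Gid8, which encode a chromatin-binding protein and a ubiquitin ligase subunit, face apart at a member of 2052 bp inside an H3K27ac region of 21325 bp.

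Members covered both flanks of a start more often than the bases just upstream of it. This was read from 941 members whose nearby starts all run in 1 direction. Along their starts the share covered by a member was highest 100 bp downstream (61.4%), fell to 43.5% at 50 bp upstream and reached 50.5% again at 200 bp upstream. At 1000 bp it was 5.31% upstream and 5.42% downstream. At starts of 962 unacetylated H3.3 regions the same 3 positions had 52.9%, 41.9% and 46.9%. Coverage there fell off more slowly, to 17.0% at 1000 bp upstream and 20.0% at 1000 bp downstream. H3K27ac regions covered 70.4% of the members' starts at 150 bp downstream, 65.1% at the start and 67.8% at 250 bp upstream. At 1000 bp they covered 44.3% upstream and 50.1% downstream. Fusion and stop differed between the H3.3 and H3K27ac libraries. The wider spread and shallower dip of H3K27ac therefore cannot be told apart from the protocol, and the contrast was not tested.

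**Figure D1:**
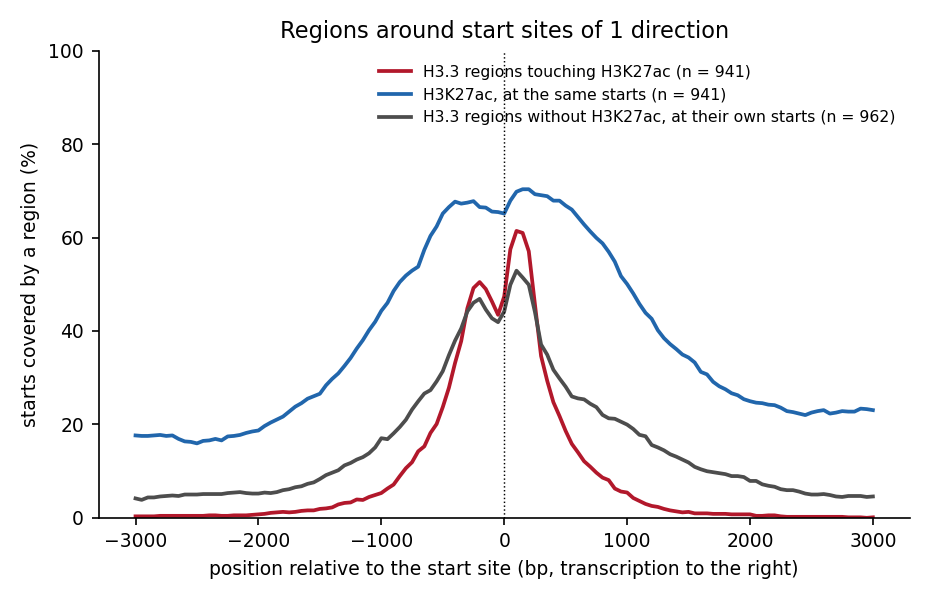
Share of start sites (%) covered by a region at each distance from the start (bp, negative upstream), in steps of 50 bp to 3 kb on both sides. The lines are H3.3 in the 941 members, H3K27ac at the same starts and H3.3 in the 962 unacetylated regions. Member coverage peaks at 61.4% downstream and 50.5% upstream with a dip of 43.5% between, and H3K27ac stays near 65.1 to 70.4% across the start.

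How a member sat on its start went with its width. Of the 941 members 441 (46.9%, 43.6 to 50.1%) held the start, 250 (26.6%) lay wholly upstream and 250 (26.6%) wholly downstream. Of 318 members under 300 bp, 51 (16.0%, 12.2 to 20.5%) held the start, 144 (45.3%) lay downstream and 123 (38.7%) upstream. Of 330 members of 600 bp or more, 237 (71.8%, 66.6 to 76.6%) held it, and of 293 members between these widths 153 did (52.2%). A wider region has more room to hold a start, and width and position were not separated here. The start lay in the member and in its H3K27ac region at 313 of the 941 (33.3%), in the member alone at 128 (13.6%), in H3K27ac alone at 299 (31.8%) and in neither at 201 (21.4%). H3K27ac reached further downstream of the member at 481 of the 941 (51.1%) and further upstream at 460 (48.9%), so acetylation extended to both sides about equally often.

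At 17 promoters 2 separate members flanked the same start, a rare arrangement beside the 1975 start sites with a member within 1 kb. In 12 of these pairs both members touched the same H3K27ac region, and the gap between the members was 522 bp at the median (56 to 1211 bp). Ndufb1, a complex I gene, had members of 238 and 207 bp with 56 bp between them. Dusp6, an ERK phosphatase gene, had members of 232 and 319 bp, 363 bp apart, and Cited2, which encodes a CBP/p300-binding regulator, had members of 420 and 221 bp, 579 bp apart. Sdhb, of respiratory complex II, had members of 297 and 215 bp, 375 bp apart, and the actin regulator gene Cfl1 had members of 1429 and 922 bp, 1211 bp apart. Of these 5 genes Cfl1 alone had its pair in different H3K27ac regions. These genes were named after their values were seen.

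Members were short, and few of them were broad. Their median width was 462 bp (434 to 489 bp), with an interquartile range of 256 to 742.5 bp and extremes of 195 and 7970 bp. The most common widths were 200 to 249 bp, which 372 members had (22.3%). Between 300 and 549 bp successive steps of 50 bp held 79, 99, 69, 85 and 95 members. Unacetylated H3.3 regions had a median width of 503 bp (471 to 528 bp) and reached 13931 bp. The main difference was in the wide tail. Regions of at least 1000 bp were 192 of the 1667 members (11.5%, 10.0 to 13.1%) and 466 of the 1821 unacetylated regions (25.6%, 23.6 to 27.7%). At 2000 bp or more the counts were 19 members (1.14%, 0.688 to 1.77%) and 227 unacetylated regions (12.5%, 11.0 to 14.1%). Under 300 bp they were 565 (33.9%) and 559 (30.7%).

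**Figure D2:**
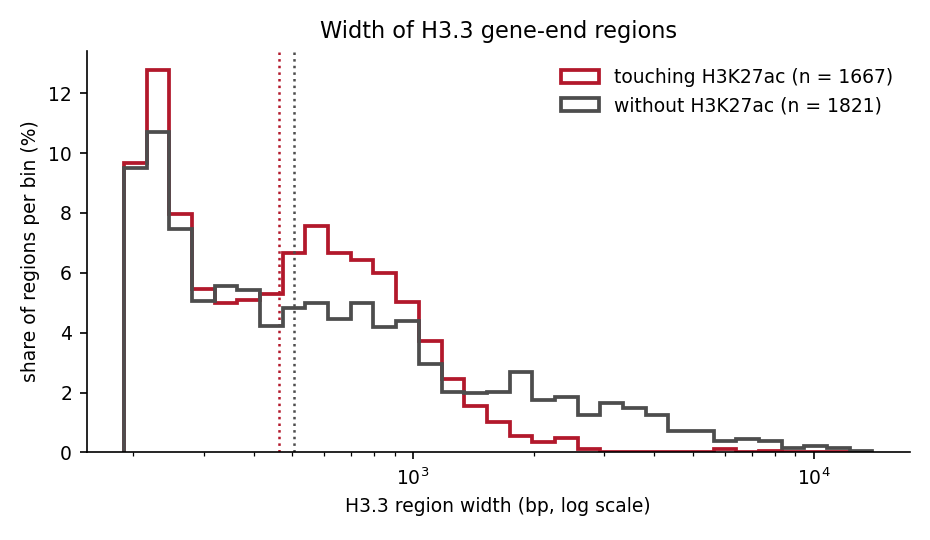
Width of H3.3 gene-end regions (bp, log axis) against the share of regions per bin (%), for the 1667 members and the 1821 unacetylated regions. Dotted lines are the medians of 462 and 503 bp. Both sets peak just above 200 bp, members are raised again near 500 to 600 bp in these bins, which widen along the log axis, and beyond 2000 bp there are 1.14% of members and 12.5% of unacetylated regions.

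Most members sat wholly inside acetylated chromatin. An H3K27ac region enclosed 986 of them (59.1%, 56.7 to 61.5%), 631 (37.9%) overlapped H3K27ac in part and 50 (3.00%) enclosed every H3K27ac region they touched. The enclosed members were narrower, with a median of 396 bp, against 542 bp for the 681 that were not enclosed. H3K27ac covered a median of 55.7% of those 681, under 50% of the length of 308 members (18.5% of all) and under 10% of 45 (2.70%). The contact was mostly between single regions, with 1636 members (98.1%) touching 1 H3K27ac region and 31 touching 2. In the other direction 1665 H3K27ac regions were touched by a member, which is 2.90% of the 57327 on these chromosomes. Of these, 31 were touched by 2 members and 1 by 3.

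Acetylated regions at members were wide, and their width said little about the width of the H3.3 region. The H3K27ac region touched had a median of 1631 bp (1537 to 1718 bp), against 975 bp (951 to 996 bp) for 11201 gene-end H3K27ac regions that touch no H3.3 region. A wider region is more likely to touch another by geometry alone, and its part in this difference was not tested. Across the 1667 members, Spearman's rho between the H3.3 width and the widest H3K27ac width touched was 0.060, and it was 0.213 across the 986 enclosed members, which cannot be wider than the region around them.

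**Figure D3:**
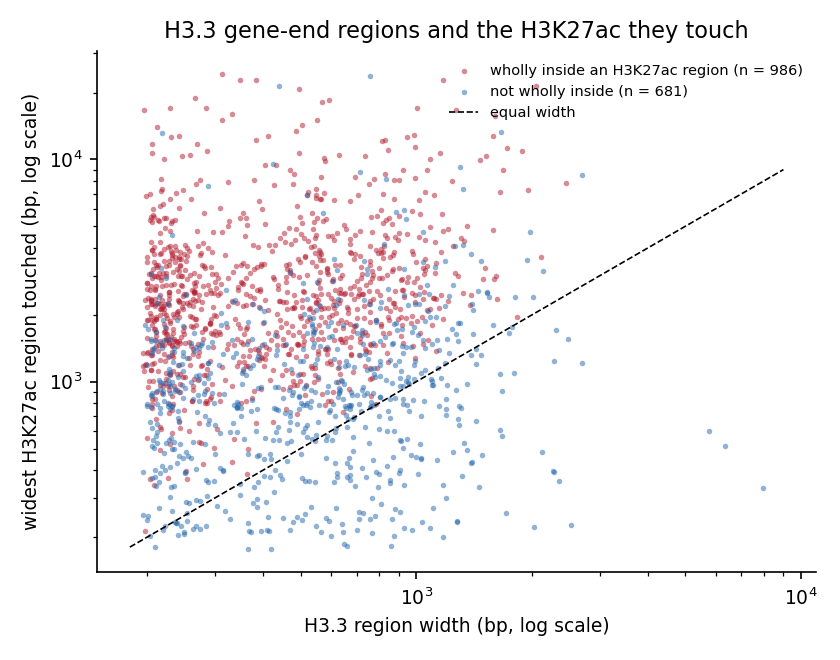
Width of each member (bp, log axis) against the width of the widest H3K27ac region it touches (bp, log axis), 1 point per member. Red points are the 986 members enclosed by H3K27ac, blue points the 681 others, and the dashed line is equal width. The cloud has little slope (Spearman's rho 0.060).

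The widest members were a mixed group, and several had little acetylation. At 7970 bp the widest, chr5:142815634-142823603 at Tnrc18, which encodes a chromatin-associated repeat protein, held an H3K27ac region of 333 bp that covered 4.18% of it. Crlf2, a cytokine receptor gene, had 6353 bp of H3.3, of which 8.06% was acetylated. A member of 5770 bp lay over Rn18s-rs5 and AY036118, in ribosomal RNA repeats that occur in many copies, so its place is uncertain. Tbx3, a T-box gene of the naive network, had 2347 bp with 15.3% covered, and Dusp4, an ERK pathway phosphatase gene, had 2525 bp with 8.99% covered. Other wide members were mostly acetylated. Ier2, a growth-factor-induced gene, had 2703 bp with 89.7% covered by 2 H3K27ac regions. Zfp568, a zinc finger repressor gene of the early embryo, had 2447 bp enclosed in 7828 bp of H3K27ac. The remaining wide members lay at Gm17762 (2687 bp), at Akt1s1 and Tbc1d17 (2483 bp) and at Gm30543 (2303 bp), with between 61.3 and 62.9% covered.

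Members at the widest acetylated regions ranged from short to wide. Fubp3, a single-stranded DNA-binding protein gene, had a member of 312 bp, chr2:31572272-31572583, inside 24124 bp of H3K27ac. Hic2, a transcriptional repressor gene, had 758 bp of H3.3 of which 61.5% lay in an H3K27ac region of 23623 bp. The members at Ppp2r2d and Mapk1ip1 (440 bp), Gm41131 (496 bp) and Glo1, the glyoxalase gene (593 bp), touched H3K27ac regions of 21494, 20739 and 18484 bp. Wider members in this group were that of 2052 bp at Dido1 and Gid8, described above, and that of 1176 bp at the long noncoding RNA gene Bvht, inside 22669 bp of H3K27ac. Besides Ier2, Gm17762 and Gm30543, the members of 2132 bp at Map3k12 and Tarbp2 and of 2005 bp at Vasp, an actin regulator gene, touched 2 H3K27ac regions each.

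Contact was a matter of single bases at the edge of the set. The members with the smallest overlap shared 1 bp with H3K27ac, at chr1:60097967-60098367 between Carf and Wdr12, chr17:34564165-34564405 at Notch4 and chr8:23208533-23208746 at Gpat4. Just outside were H3.3 regions that abut an H3K27ac region with a gap of 0 bp, at Dcaf6 with Mpc2, at Rev3l with E130307A14Rik and at Dnajc22. Most unacetylated regions were far from this edge. Their median gap to the nearest H3K27ac region was 19249 bp (17314 to 21484 bp), with 60 (3.29%) under 100 bp and 287 (15.8%) under 1000 bp. By distance to a gene end, the members nearest the limit lay 972, 990 and 990 bp away, and the nearest touching regions beyond it 1003, 1017 and 1022 bp away.

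The promoters inside members were rich in CpG. A listed start lay inside 700 members (42.0%), which held 924 starts in all, and inside 589 unacetylated regions, which held 778 starts. Sequence was read over 300 bases, from 250 before to 50 after each start. Median GC content was 61.0% at starts in members (60.3 to 62.0%), 62.7% at starts in unacetylated regions (62.0 to 63.7%), 58.0% at 4030 starts in H3K27ac with no H3.3 and 53.0% over all 31365 listed starts. The observed over expected CpG ratio had medians of 0.792, 0.739, 0.697 and 0.388 in these same sets.

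Motifs of broadly used activators were more frequent in the members' promoters than in the unacetylated ones. The ETS motif, bound by factors such as GABPA, was found at 254 of 924 starts in members (27.5%, 24.6 to 30.5%), 101 of 778 in unacetylated regions (13.0%, 10.7 to 15.5%), 20.7% of starts in H3K27ac alone and 2823 of all 31365 starts. YY1, a zinc finger factor of start-proximal sites, had its motif at 124 starts in members (13.4%, 11.3 to 15.8%) and 32 in unacetylated regions (4.11%, 2.83 to 5.76%), against 10.2% with H3K27ac alone and 6.02% of all. The motif of NRF1, a regulator of mitochondrial and growth genes, was at 92 starts in members (9.96%) and 21 in unacetylated regions (2.70%), against 8.98% with H3K27ac alone and 4.66% of all. ZFP143, which binds start-proximal sites of many housekeeping genes, had its motif at 53 starts in members (5.74%, 4.33 to 7.44%), 12 in unacetylated regions (1.54%, 0.799 to 2.68%), 1.81% of those in H3K27ac alone and 1.04% of all. At least 1 of the 4 motifs was present at 424 of 924 starts in members (45.9%, 42.6 to 49.2%), 152 of 778 in unacetylated regions (19.5%, 16.8 to 22.5%), 35.5% of those in H3K27ac alone and 18.3% of all. Of 13 motifs searched, these 4 are the ones higher in members with intervals apart from those of unacetylated regions. Pooling them, by start or by region, therefore restates the same differences and adds no support.

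Counted by region, which gives each member 1 vote, the share was 337 of 700 members (48.1%) and 127 of 589 unacetylated regions (21.6%). Among members with a start it was 204 of 401 when enclosed by H3K27ac (50.9%, 45.9 to 55.9%) and 133 of 299 when not (44.5%, 38.8 to 50.3%). The other 9 motifs differed less or ran the other way. GGGCGG of SP/KLF factors was at 68.4% of starts in members and 65.4% in unacetylated regions, and CCAAT of NFY at 48.3% and 45.1%. The TATA box TATAAA was at 31 starts in members (3.35%, 2.29 to 4.73%), 65 in unacetylated regions (8.35%, 6.51 to 10.5%), and 13.6% of all. The E-box CACGTG (8.44% of starts in members and 8.61% in unacetylated regions), the cyclic AMP element TGACGTCA (4.00 and 3.47%), the octamer ATGCAAAT (1.95 and 2.44%), the KLF motif GGGTGTGGC (1.62 and 2.19%) and the E2F motif TTTCCCGC (3.35 and 1.93%) had overlapping intervals. The CTCF motif (CCAC, any base, AGG, any base, GGCAG) was at none of the 924 starts in members, which allows a share of up to 0.398%. It was also at none of the 778 starts in unacetylated regions and at 20 of all 31365 (0.064%). At that rate the search was too sparse to show a difference. Every motif was searched on both strands, no motif contains another, and none of these differences was tested.

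**Figure D4:**
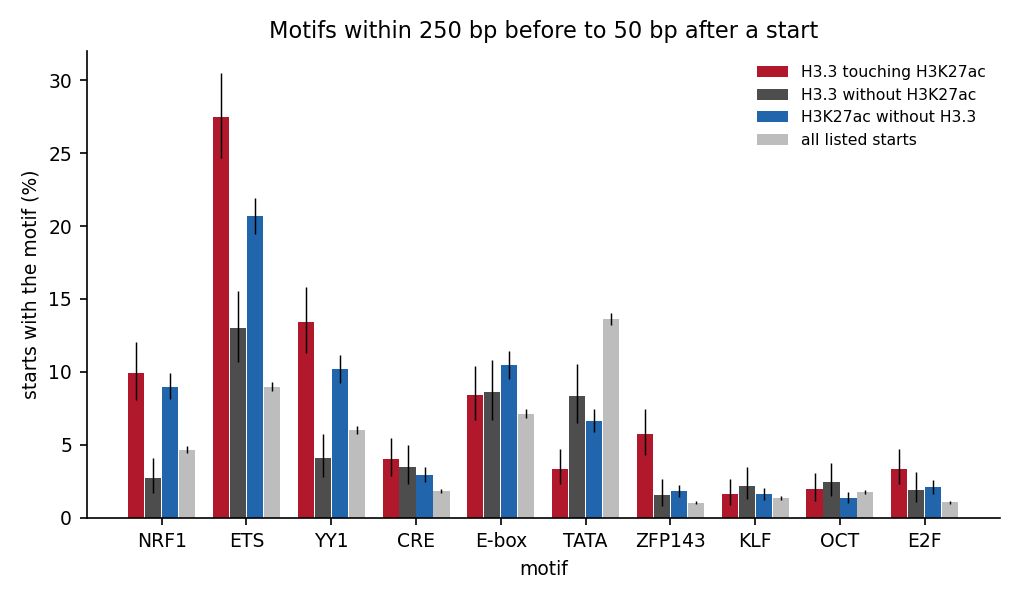
Share of start sites (%) with each of 10 motifs from 250 bp before to 50 bp after the start, for starts in members, in unacetylated H3.3 regions, in H3K27ac without H3.3 and over all listed starts. Bars begin at 0 and thin lines are exact 95% intervals. ETS, YY1, NRF1 and ZFP143 are higher in members than in unacetylated regions, and TATA is lower.

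Members lay at the ends of 2285 genes, of which 1879 were protein-coding, 327 long noncoding RNA genes and 21 miRNA genes. A single gene lay in the window of 1025 members, 601 had 2 genes and 41 had 3 or more, so neighbouring genes can share a member. Of the 1879 protein-coding genes 61 had 2 members and 1 had more. Over all 20665 protein-coding genes on these chromosomes 9.09% had a member, and over the 8383 with H3K27ac at an end 22.3% did. Unacetylated H3.3 regions lay at 7.89% of all protein-coding genes, and members at 2.64% of long noncoding RNA genes. Each gene group below is read against 9.09% and, since many of these groups are acetylated at most of their genes, against 22.3%. The groups are lists of names, some of their genes share regions, and no group was tested.

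Of the 31 groups, splicing factor genes had the highest share with a member, with an interval that overlaps those of many other groups. Of 51 genes 20 had one (39.2%, 25.8 to 53.9%), as did 20 of the 47 with H3K27ac (42.6%, 28.3 to 57.8%). The median width over the 20 genes was 668.5 bp, and the widest members measured 1941 bp at Hnrnpl, 1527 bp at Hnrnpa2b1, 1259 bp at Hnrnpu and 1018 bp at the Sm protein gene Snrpg. Among the shortest were those of 228 bp at Hnrnpa0 and 211 bp at Hnrnpdl. The hnRNP genes Hnrnpc, Hnrnpd and Hnrnpf, of the same class of RNA-binding proteins, had no member.

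The protein synthesis groups were mixed. Ribosomal protein genes had members at 22 of 80 (27.5%, 18.1 to 38.6%), which is 28.6% of the 77 acetylated ones. Rpl19 had a member of 781 bp with 17.9% covered and Rps19 had 673 bp with 19.6% covered. Aminoacyl-tRNA synthetase genes had members at 9 of 36 (12.1 to 42.2%), which is 26.5% of the 34 acetylated ones. The widest was at Qars with 1387 bp, and Hars and Hars2, which face apart as a known divergent pair, shared 1 of 507 bp. Translation initiation factor genes had members at 6 of 53 (11.3%) and at 13.3% of the 45 acetylated ones (5.05 to 26.8%), with Eif3b at 1056 bp and Eif4g2 at 808 bp. Mitochondrial ribosomal protein genes had members at 12 of 78 (15.4%), which is 18.8% of the 64 acetylated ones. Among these genes were Mrps12, which shared 1248 bp with the mitochondrial synthetase gene Sars2, and Mrpl43 with 940 bp enclosed in 1931 bp of H3K27ac.

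Genes of respiration and of the proteasome had members at shares near that of all acetylated genes, and stress response and chaperone genes at a higher one. For oxidative phosphorylation 20 of 93 genes had one (21.5%), which is 24.1% of the 83 acetylated ones (15.4 to 34.7%). The ATP synthase genes Atp5g2 (1067 bp) and Atp5j (873 bp) and the complex III gene Uqcrq (972 bp) had enclosed members, while the 950 bp at Ndufa11 were covered to 18.2%. Proteasome genes had members at 10 of 50 (20.0%), 22.7% of the 44 acetylated ones, with 536 bp at Psmd13, 532 bp at Psme2 and 520 bp at Psmd11. Genes of the unfolded protein response and chaperones had them at 10 of 28 (35.7%, 18.6 to 55.9%), which is 37.0% of the 27 acetylated ones (19.4 to 57.6%, an interval that holds 22.3%), led by the stress regulator Ddit3 with 1283 bp, Dnajb1 with 906 bp and Hsp90ab1 with 904 bp.

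Genes that respond to growth signals had members at 7 of 22 immediate early genes (31.8%, 13.9 to 54.9%). Only 12 of the 22 were acetylated, and the 7 are 58.3% of those (27.7 to 84.8%), an interval above 22.3% that rests on few genes. Junb, a subunit of AP-1, had an enclosed member of 804 bp, whereas the 798 bp at Dusp1 and the 777 bp at Myc were covered to 21.8 and 22.0%. Unacetylated H3.3 regions lay at 6 of the 22 genes. Cell cycle and licensing genes had members at 9 of 38 (23.7%), which is 25.7% of the 35 acetylated ones. Their members included those at Trp53, the p53 gene (1466 bp), the helicase gene Mcm7 (902 bp) and Mycn (541 bp). DNA repair genes had them at 12 of 38 (31.6%, 17.5 to 48.7%), 33.3% of the 36 acetylated ones, with 1720 bp at the mismatch repair gene Msh6, 719 bp at Brca1 and 689 bp at the damage kinase gene Atm. None of the 38 DNA repair genes had an unacetylated H3.3 region, against 7.89% of all protein-coding genes. At that share a list of this size would hold few such genes, and the difference was not tested.

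Rab GTPases, the switches of membrane traffic, had members at 13 of 55 genes (23.6%), which is 39.4% of the 33 acetylated ones (22.9 to 57.9%). Rab5a, of early endosomes, had 1280 bp with 43.9% covered, and the widely used Rab5b had 771 bp enclosed in 3004 bp. Zinc finger genes named Zfp had members at 66 of 388 (17.0%, 13.4 to 21.1%) and at 27.4% of the 241 acetylated ones (21.9 to 33.5%). Besides Zfp568, Zfp524 had 1801 bp and Zfp367, a cell cycle gene of this class, 1650 bp with 16.8% covered.

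Groups of the transcription and chromatin machinery had shares on both sides of the background of acetylated genes, with wide intervals that hold 22.3%. RNA polymerase II, general factor and Mediator genes had them at 10 of 78 (12.8%) and at 16.1% of the 62 acetylated ones (8.02 to 27.7%), among them the largest polymerase subunit gene Polr2a (696 bp), Taf8 (694 bp) and the Mediator genes Med19 and Med21 (912 bp each). The list of H3.3 genes and chaperones held 3 genes with a member out of 13, which is 27.3% of its 11 acetylated genes. The 3 were Daxx (1308 bp), Hira (1175 bp, shared with Mrpl40) and Asf1b (498 bp), with members all enclosed by H3K27ac. H3f3a, which encodes H3.3, had an H3.3 region of 390 bp, chr1:180803079-180803468, at its other end and 3117 bp from the nearest H3K27ac region, so it is not a member, and H3f3b, the other H3.3 gene, had no H3.3 region at an end. Acetyltransferase and BET reader genes had members at 3 of 20, namely Kat7 (786 bp), Kat8 (507 bp) and Ep300 (251 bp), which is 16.7% of the acetylated ones. Deacetylase and corepressor genes had 4 of 20, Gatad2a, Tbl1xr1, Mta2 and Chd4 (25% of the acetylated ones). Chromatin remodeller genes had 5 of 25 (22.7% of the acetylated ones), including Arid1a (759 bp), Ino80 (758 bp) and Srcap (563 bp, 45.8% covered). H3K4 methyltransferase complex genes had 4 of 15, namely Rbbp5, Kmt2b, Setd1a and Men1 (33.3% of the acetylated ones). Of 20 nucleoporin genes 3 had a member, Nup98, Nup155 and Nup88 (16.7% of the acetylated ones).

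Polycomb complex genes had members at 3 of 27, which is 20.0% of the 15 acetylated ones, and unacetylated H3.3 regions at 6. The 3 were Phc1 (1325 bp), Jarid2 (526 bp with 67.9% covered) and Cbx7 (242 bp). No CTCF or cohesin gene of 12 had a member or an unacetylated region. Of these genes 8 were acetylated, and the interval for none of 8 (0 to 36.9%) holds 22.3%. Of 17 small nucleolar RNA host genes, all long noncoding, 14 were acetylated and 1, Snhg7, had a member of 389 bp. The share is 5.88% (0.149 to 28.7%), an interval that holds the 2.64% of all long noncoding RNA genes. Of 18 housekeeping genes 4 had a member, which is 26.7% of the 15 acetylated ones. The 4 included Gapdh (1115 bp), Ppia (673 bp) and Eef1a1 (469 bp).

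Genes of cell identity were split between members and unacetylated regions, and by the rule a member has to touch H3K27ac. Naive pluripotency genes had members at 8 of 30 (26.7%, 12.3 to 45.9%) and unacetylated regions at 2. The 8 are 29.6% of the 27 acetylated ones (13.8 to 50.2%, an interval that holds 22.3%). Pou5f1 (1684 bp in 8921 bp of H3K27ac), the Nodal co-receptor gene Tdgf1 (1513 bp in 10315 bp), Fbxo15 (1266 bp in 16704 bp) and Fgf4 (877 bp in 6629 bp) had enclosed members. So did Utf1 (538 bp) and Sall4 (363 bp). The members at Tbx3 (2347 bp, 15.3% covered) and Rif1 (204 bp, 79.9% covered) were not enclosed. Over the 8 genes, with the widest member of each, the median width was 1072 bp. Formative and primed genes had members at 2 of 18, which is 28.6% of the 7 acetylated ones, and unacetylated regions at 9. The 2 were the ETS factor gene Etv4 (1029 bp with 2.24% covered) and Nodal (612 bp enclosed in 6597 bp). Lineage regulators, which are transcription factors of germ layers and organs, had a member at none of 40 and an unacetylated region at 31. Only 2 of the 40 had H3K27ac at an end. Hox genes had a member at none of 39 and an unacetylated region at 38, and none of the 39 had H3K27ac at an end. Olfactory receptor genes (1104) and differentiated tissue markers (33) had no member, and an unacetylated region lay at 1 olfactory receptor gene and at 3 of the markers. H3K27ac lay at an end of 3 olfactory receptor genes and 2 of the markers. With so few acetylated genes, the rule left these groups little room for a member.

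**Figure D5:**
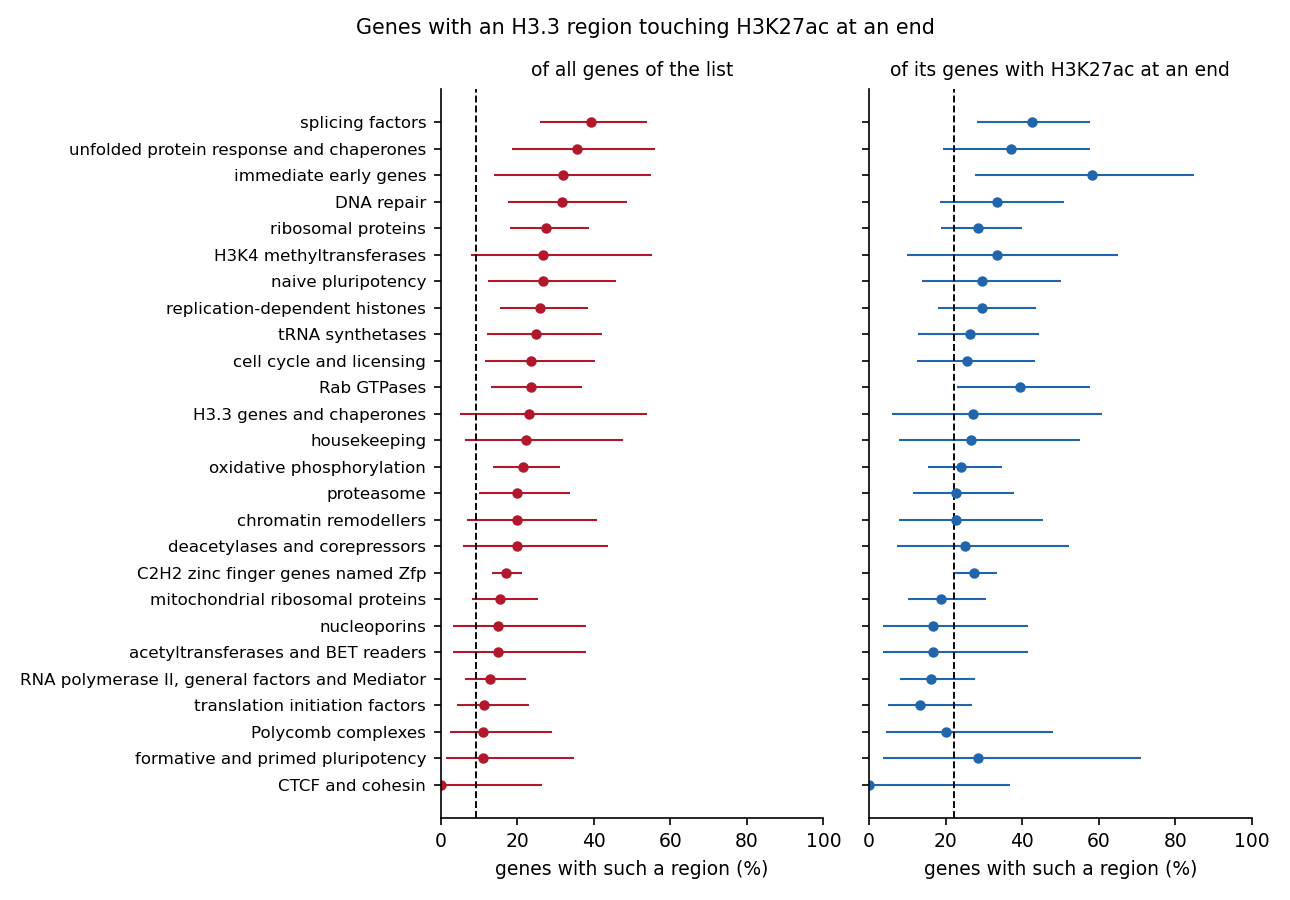
Share of genes with a member (%) in 26 gene groups, of all genes of the group on the left and of its genes with H3K27ac at an end on the right, with exact 95% intervals. Dashed lines are the shares over all protein-coding genes (9.09%) and over those with H3K27ac at an end (22.3%). Splicing factor genes stand at 39.2% on the left and 42.6% on the right, and immediate early genes at 58.3% on the right.

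Replication-dependent histone genes, whose clustered genes supply canonical histones in S phase, had members at 16 of 62 genes (25.8%, 15.5 to 38.5%) in 11 regions. The 16 are 29.6% of the 54 acetylated ones (17.98 to 43.6%), an interval that holds 22.3%. H1f1, H3c1 and H4c1 shared a member of 1185 bp, chr13:23761512-23762696, H2ac6 and H2bc4 shared 1010 bp, and H2ac20, H2ac21 and H2bc21 shared 224 bp. These genes are close copies of each other, so reads could be split or misplaced among them.

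Small RNA genes had members too. Over members of every kind, 147 (8.82%) had no protein-coding gene at all in their window. A member lay at 21 of 1136 miRNA genes (1.85%), 14 of 931 snRNA genes (1.50%) and 13 of 391 tRNA genes (3.32%), against 4.86% of genes of all biotypes. These genes lay at 18, 15 and 12 members, of which 4, 9 and 5 had no protein-coding gene in the window. Rn7sk, the RNA that holds the elongation factor P-TEFb inactive, had a member of 205 bp in 1351 bp of H3K27ac with no protein-coding gene in the window. The U3 RNA gene Rnu3a had 916 bp in a window shared with Gtf3c6, and Rnu2-10 had 1194 bp. Many snRNA and tRNA genes are multi-copy, and the placing of reads among copies is uncertain. Of the miRNA genes, Mir22 had 1742 bp and Mir210, a hypoxia-induced miRNA, 366 bp, with no protein-coding gene in either window. These RNA genes were named after their values were seen.

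A single member of 347 bp, chr7:3220326-3220672, lay in the miR-290 to miR-295 cluster, which supplies some of the most abundant miRNAs of mouse embryonic stem cells. It was within 1 kb of Mir291b, Mir293, Mir294, Mir295 and the host transcript D7Ertd143e and was enclosed in 22757 bp of H3K27ac. Mature sequences from RefSeq were listed for 20 of the 21 miRNA genes at members. The 3p strands of this cluster are shown because their seeds (bases 2 to 8, in capitals) are what the cluster is known for.
miR-294-3p: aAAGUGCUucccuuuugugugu
miR-295-3p: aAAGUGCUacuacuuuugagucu
miR-291b-3p: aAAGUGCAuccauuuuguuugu
miR-293-3p: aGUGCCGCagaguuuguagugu
The seed AAGUGCU was shared by miR-294-3p and miR-295-3p, while that of miR-291b-3p is AAGUGCA and that of miR-293-3p is GUGCCGC. The member covered all of miR-293-3p and began downstream of miR-291b-3p, which lies at chr7:3219529-3219550 on the plus strand.

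The share of gene-end H3.3 regions that were members differed between chromosomes. On chromosome 7, 190 of 311 gene-end H3.3 regions were members (61.1%, 55.4 to 66.5%), against 1477 of 3177 on the other autosomes (46.5%, 44.7 to 48.2%). The lowest share was on chromosome 5, with 78 of 205 (38.0%, 31.4 to 45.1%). By genes, chromosome 7 did not stand apart, with a member at 11.3% of its protein-coding genes, against 11.2% on chromosomes 8 and 19 and 11.1% on chromosome 11. Zfp genes are clustered on chromosome 7, where 23 of 93 had a member (24.7%), against 43 of 295 elsewhere (14.6%). With regions at Zfp genes set aside on chromosome 7 only, 169 of 285 there were members (59.3%, 53.3 to 65.1%). Regions at Zfp genes on the other autosomes were not set aside, so the 46.5% above is not a matched share. Chromosome 7 was singled out after its value was seen, and the difference was not tested.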

How the data were processed

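CUT&RUN libraries came from E14 nuclei, and their titles gave the target and the genotype of each group. Per the labels' protocols, nucleosomes of yeast served as spike-in. Per the submitters' processing notes, the tools were Bowtie2, SAMtools, deepTools and MACS2 and the build was mm10; no version or role is stated. The way the consensus was formed, with its threshold and libraries, is not given in the sources used here. Each deposited list, 1 for H3.3 and 1 for H3K27ac, holds region positions and no count, score or signal. Columns of other samples numbered 0. The H3K122ac and no-antibody libraries were not analysed here.

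Starts were raised by 1 to give 1-based positions. Outside chromosomes 1 to 19 lay 69 H3.3 and 530 H3K27ac regions, which were not used. Gene ends came from the RefSeq table of GRCm38.p6 and strand, starts and promoter sequences from its promoter table, which lists no start on chromosome 18. The 31 gene lists were 17 typed by name (440 names, 7 not used) and 14 set by symbol. The members and lists were chosen with earlier results of these data known. Named genes were the 10 widest members, the 10 at the widest H3K27ac regions, the 5 touching the most H3K27ac regions, up to 4 per list with the widest member and up to 4 without, the edge cases, H3f3a and H3f3b; some of these are not printed, and names beyond the rule complete sets of 5 or fewer or were chosen after their values were seen. Counting steps were tested on simulated data. Python 3.11.15, NumPy 2.4.6, SciPy 1.17.1 and matplotlib 3.10.9 were used. Alternatives changed the window, the overlap, the gene biotypes and the regions used.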

Additional observations from a re-analysis of the deposited data

How the results depend on the processing

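Of 42 summary values recomputed under 6 alternatives, 33 stayed within 1.5 times (counts) or within the interval of the main value, and 9 moved. Using the wider 50% of H3.3 regions (452 bp or more) left 851 members at 998 protein-coding genes, with a median width of 734.0 bp and 52.9% enclosed by H3K27ac. Asking that H3K27ac cover at least 50% of a member gave a median width of 402.0 bp with 72.6% enclosed, and using the wider 50% of H3K27ac regions gave 72.5% enclosed. A window of 500 bp put 97.6% of members at a start. With ends of protein-coding genes only, 11.4% of members lay at starts facing apart. Each of these alternatives removes regions or genes by its own construction. Of 180 counts over gene lists 19 moved, 17 to fewer genes and 2 to more. The lists counted here hold protein-coding genes only. Using ends of protein-coding genes only therefore could not change any list count, nor the summary count of protein-coding genes. Those comparisons were fixed in advance and say nothing about stability. No paired analysis was possible because the deposited lists hold no value per library. For the same reason no library could be left out, and no limit from read depth can be given. A region missing from a list may have fallen short of a threshold that is not given in the sources used here.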
